A study of Mus musculus with 2 samples.

Results

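Proteins that a cell secretes or places in its membranes enter the endoplasmic reticulum (ER) and travel to the Golgi in coated vesicles. The genes described here encode that route. They were chosen by symbol alone: subunits of the COPI and COPII vesicle coats, Sar1 and Arf GTPases, the TRAPP tether, p24 (Tmed) proteins, cargo and KDEL receptors, the signal recognition particle (SRP), and the Sec61 and Ssr proteins of the translocon. The patterns matched 88 of 23282 rows, leaving out Copg2, and each row carried its own symbol. Of these, 79 had at least 40 counts in both libraries together and are called measured, and 9 did not. The pattern for Sec genes also took in Sec1, a fucosyltransferase gene, and 5 genes of the Sec14-like lipid-binding family, which share only the letters.

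The study compared 2 cultures of 3T3-L1, a mouse line of fibroblasts able to become fat cells in a dish, which the labels call adipocytes. In 1 culture the siRNA targeted Pink1, which encodes a kinase that tags damaged mitochondria for clearance, and in the second a control siRNA was used. The series title speaks of bone loss with age. Each condition gave 1 library of 3′ end tags, of 13803174 counts for the control siRNA and 14214768 for the Pink1 siRNA. No day of differentiation or time after transfection is given in the sources used here. Nothing below therefore has a replicate check or a p-value, and intervals cover counting error only unless they are called widened.

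ER entry and vesicle traffic use separate machines. The SRP, an RNA and protein particle, catches the signal peptide of a nascent protein and docks it at the Sec61 channel, where Ssr proteins sit beside the pore and signal peptidase cuts the peptide off. COPII coats, started by the GTPase Sar1, carry cargo out of the ER, and COPI coats, started by Arf1, carry escaped ER proteins and receptors back. Fat cells and matrix-producing fibroblasts both rely on this route, since adipokines and collagens pass through it.

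Stretches of promoter are shown for the members that carry the unfolded protein response element TGACGTGG, to which the ER stress factors ATF6 and XBP1 bind. It was searched on both strands in RefSeq windows (build GRCm38.p6) running from 250 bases before to 50 after a gene's start. Windows were found for 72 of the 88 members. It was 1 of 10 motifs searched. The element was in 7 of these 72 genes, or 9.72%, against 0.714% of the 27025 genes with a window. Each line below reads 5′ to 3′ on the gene's own strand, with the element in capitals, and CCACGTCA is the same element on the other strand.
Copb1, chr7:114254690-114254719, minus strand: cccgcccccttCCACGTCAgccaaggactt
Copb2, chr9:98563713-98563742, plus strand: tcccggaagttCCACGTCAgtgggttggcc
Arf1, chr11:59228228-59228257, minus strand: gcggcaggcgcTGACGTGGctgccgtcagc
Sec23a, chr12:59011993-59012022, minus strand: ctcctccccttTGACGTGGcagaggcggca
Sec24d, chr3:123267459-123267488, plus strand: gcccgggcgccTGACGTGGcactagcaacc
Sec16b, chr1:157506741-157506770, plus strand: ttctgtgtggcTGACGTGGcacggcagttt
Kdelr3, chr15:79516367-79516396, plus strand: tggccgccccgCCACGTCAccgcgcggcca
The last 6 bases of the element, ACGTGG, were in 26 of the 72 genes (36.1%) and in 9.39% of all genes with a window. The longer ER stress response element, CCAAT and CCACG with 9 bases between them, was in none of the 72 and in 0.137% of all genes. TCACGTGA, the E-box bound by the lysosomal regulator TFEB, was in 2 of the 72 (2.78%) and in 1.12% of all genes. The GC box GGGCGG, common in promoters, was in 68.1% of the members and 38.2% of all genes, and the cyclic AMP response element TGACGTCA was in 1.39% and 2.03%. The holders of TCACGTGA were Sec23ip and Sec62, and Sec62 is shown because it had the highest ratio of the measured members.
Sec62, chr3:30792832-30792861, plus strand: gttgtgaggtgTCACGTGAggagcggacat
These matches describe the letters of the windows and say nothing about which factor is bound.

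The targeted gene was checked first. Pink1 (chromosome 4, 138313409 to 138326296, mm10) had 511 counts with the control siRNA and 351 with the Pink1 siRNA. The ratio was 0.687 (95% counting interval 0.598 to 0.788). A second interval, called widened below, allows for the spread between these libraries among genes in the same twentieth by mean level. For Pink1 it was 0.445 to 1.05 and included 1. Adipocyte markers were present, with 4337 and 4309 counts for the adiponectin gene Adipoq and 14673 and 16749 for the fatty acid carrier Fabp4, while the leptin gene Lep had 0 in both. Of 12 mature adipocyte markers, 11 were measured, 7 with ratios above 1 and 4 below. They ran from 0.608 for the lipid droplet gene Plin1 (275 and 167 counts) to 1.49 for the resistin gene Retn (376 and 562). The widened interval left out 1 for 0 of the 11. The 7 preadipocyte and fibroblast markers were all measured, and all 7 ratios were above 1, as were 51.1% of measured genes. The highest was that of the fibroblast surface marker Thy1 (1289 and 1892 counts, ratio 1.47, widened interval 1.05 to 2.06). The widened interval left out 1 for 3 of the 7, and for 478 of all 11660 measured genes. Besides Thy1, the markers were Dlk1 and Col1a1, with ratios of 1.12 and 1.15, both under 1.2-fold. Both fell in the highest twentieth by level, where all genes shared the same allowance for spread. Dlk1 (116628 and 130666 counts), Col3a1 (81819 and 89351) and Col1a1 (55640 and 63932) had more counts than Adipoq or Fabp4. Of 5 osteoblast markers 1 was measured, Runx2, with 419 and 217 counts (ratio 0.519, widened interval 0.315 to 0.835), and of 4 macrophage markers 1, Cd68, with 20 and 23. Sp7 and Bglap of the first list and Adgre1 of the second had 0 in both libraries. The part of cell makeup in the values below was not tested, and in bulk RNA fewer cells of a type cannot be told apart from less RNA per cell.

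Summed over its genes, the route had nearly the same level in these 2 libraries. Members took 0.859% of counts in the control library and 0.866% in the Pink1 siRNA library. The median log2 ratio of the 79 measured members, Pink1 siRNA over control siRNA, was 0.00, against 0.00 over all 11660 measured genes and 0.04 over those averaging at least 100 CPM (counts scaled to a common library size). Ratios were above 1 for 41 members and below 1 for 38, where 51.1% of all measured genes were above 1 and 48.9% below.

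By a rule of size, a ratio of at least 2 with a counting interval that left out 1, 0 members were higher and 0 lower. The background was 1.63% of measured genes higher and 2.39% lower, or 4.02% either way. A smaller fold of 1.2 was paired with the widened interval. By this rule 1 member was called, Ssr3, which was higher, with a background of 4.07% of measured genes either way. With 1.2-fold and the plain counting interval, 6 members were higher (background 16.9%) and 7 lower (17.2%), or 16.5% of measured members against 34.1% of measured genes either way.

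Member ratios were closer together than those of the transcriptome. Of the 79, 63 (79.7%) lay within 1.2-fold, against 58.5% of measured genes. Their interquartile range was -0.12 to 0.12 on the log2 scale, and that of all measured genes -0.21 to 0.21. Members were more abundant than most genes (median mean level 67.5 against 27.2 CPM), and abundant genes were closer to 1. Between 29.1 and 149 CPM, the quartiles of the members by mean level, 87.2% of 39 members and 72.3% of 4422 measured genes lay within 1.2-fold. The difference in spread itself was not tested.

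**Figure D1:**
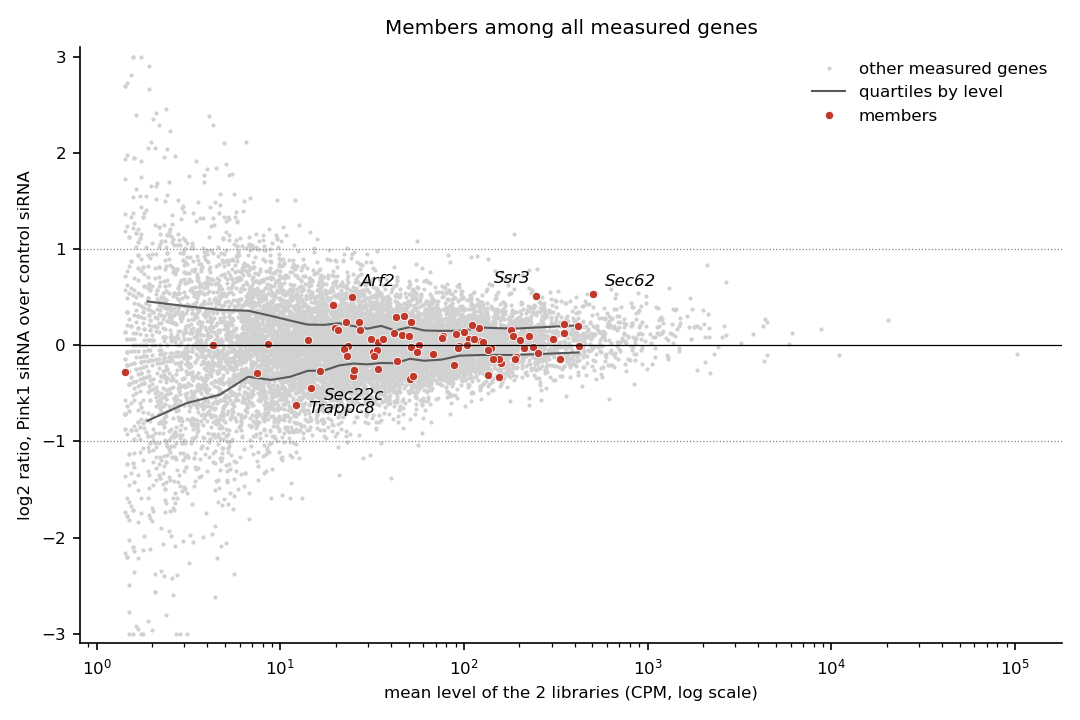
Each point is a measured gene, with its mean level in CPM on a log axis and the log2 ratio of Pink1 siRNA over control siRNA, drawn at the edge where it passes 3 either way. The 79 members (red) lie between -0.62 and 0.53, inside the dotted 2-fold lines, mostly near the lines that join the quartiles of all genes by level.

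Members of the translocon had the 2 highest ratios. Ssr3 (chromosome 3, 65379657 to 65392553) encodes the gamma subunit of the translocon-associated protein complex, which helps certain signal sequences open the Sec61 channel. It had 2829 counts with the control siRNA and 4043 with the Pink1 siRNA, or 202 and 289 CPM. The ratio was 1.43 (counting interval 1.36 to 1.5, widened 1.08 to 1.90). On the log2 scale it was 0.52, above the interquartile range of -0.10 to 0.17 for genes of its level, a range that by definition leaves out many genes. The other Ssr subunits differed little. Ssr1 had 2487 and 2663 counts, Ssr2 had 1707 and 1757, and Ssr4 had 2773 and 2870, with ratios of 1.07, 1.03 and 1.04. All 4 Ssr ratios were above 1, as were 51.1% of measured genes, although with total-count scaling only 3 of the 4 were.

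Sec62 (chromosome 3, 30792876 to 30821263) encodes a channel partner that aids the entry of short and post-translationally delivered proteins and also serves as a receptor for the autophagy of ER. It had 5747 and 8298 counts, or 410 and 592 CPM. The ratio of 1.44 had a counting interval of 1.40 to 1.49, but the widened interval of 0.972 to 2.16 included 1. Sec62 fell in the highest twentieth by level, which ran up to 102959 CPM and had a widening factor of 128, against 32.5 for Ssr3. Its log2 ratio of 0.53 was above the interquartile range of -0.08 to 0.21 in that twentieth. The 2 genes were thus judged with unlike factors. Sec63, the J-domain partner that works with Sec62 and the chaperone BiP, had 1742 and 1781 counts and a ratio of 1.02. The 2 partners of the channel were thus at unlike ratios in the same libraries.

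The channel itself was near 1 in its small subunits. Sec61b had 1447 and 1446 counts and Sec61g 5953 and 5934. The pore-forming alpha subunit has 2 genes. Sec61a1 had 5473 and 6272 counts (ratio 1.15), and Sec61a2 had 233 and 312 counts (ratio 1.34, counting interval 1.13 to 1.59). Both widened intervals included 1. Sec61a2 supplied 4.08% of the counts of the pair in the control library and 4.74% in the Pink1 siRNA library, with overlapping exact binomial 95% intervals (3.58% to 4.63% and 4.24% to 5.28%).

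SRP proteins lay on both sides of 1, and none passed either rule. The particle pairs an Alu domain, formed with Srp9 and Srp14, which slows translation, with an S domain that binds the signal peptide through Srp54. The Alu partners differed in sign, with 663 and 782 counts for Srp9 (ratio 1.18) and 2800 and 2537 for Srp14 (ratio 0.906). Of the S domain proteins, Srp19 had 1440 and 1671 counts, Srp68 had 1036 and 1089, and Srp72 had 4684 and 5126. These 3 ratios ran from 1.05 to 1.16. The 3 neighbouring copies Srp54a, Srp54b and Srp54c on chromosome 12 had ratios of 0.928, 0.839 and 0.928. The copies are closely related, so how reads were split among them is uncertain.

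Signal peptidase, which removes the signal peptide, has 2 alternative catalytic subunits here. Sec11a had 1546 and 1621 counts, and Sec11c had 291 and 345, with ratios of 1.05 and 1.19. Across all 20 genes of ER entry (SRP, Sec61 with Sec62 and Sec63, Ssr and signal peptidase), 14 ratios were above 1 and 6 below (12 above with total-count scaling, where Sec63 and Ssr2 lay below 1), with a median log2 ratio of 0.07. Of all measured genes 51.1% were above 1, and of those averaging at least 100 CPM 58.7%. Summed counts of the 20 ER entry genes were 44037 and 49613, a ratio of 1.13. Without Sec62 and Ssr3, the sums were 35461 and 37272, a ratio of 1.05. Of the 58 measured genes of vesicle traffic, 26 ratios were above 1 and 32 below, with summed counts of 72785 and 71695 (ratio 0.985). The 2 groups also differed in abundance, with a median mean level of 118 CPM for ER entry and 51.3 CPM for vesicle traffic. Over all genes averaging at least 100 CPM, the summed ratio was 1.04. The difference between these groups of genes was not tested.

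**Figure D2:**
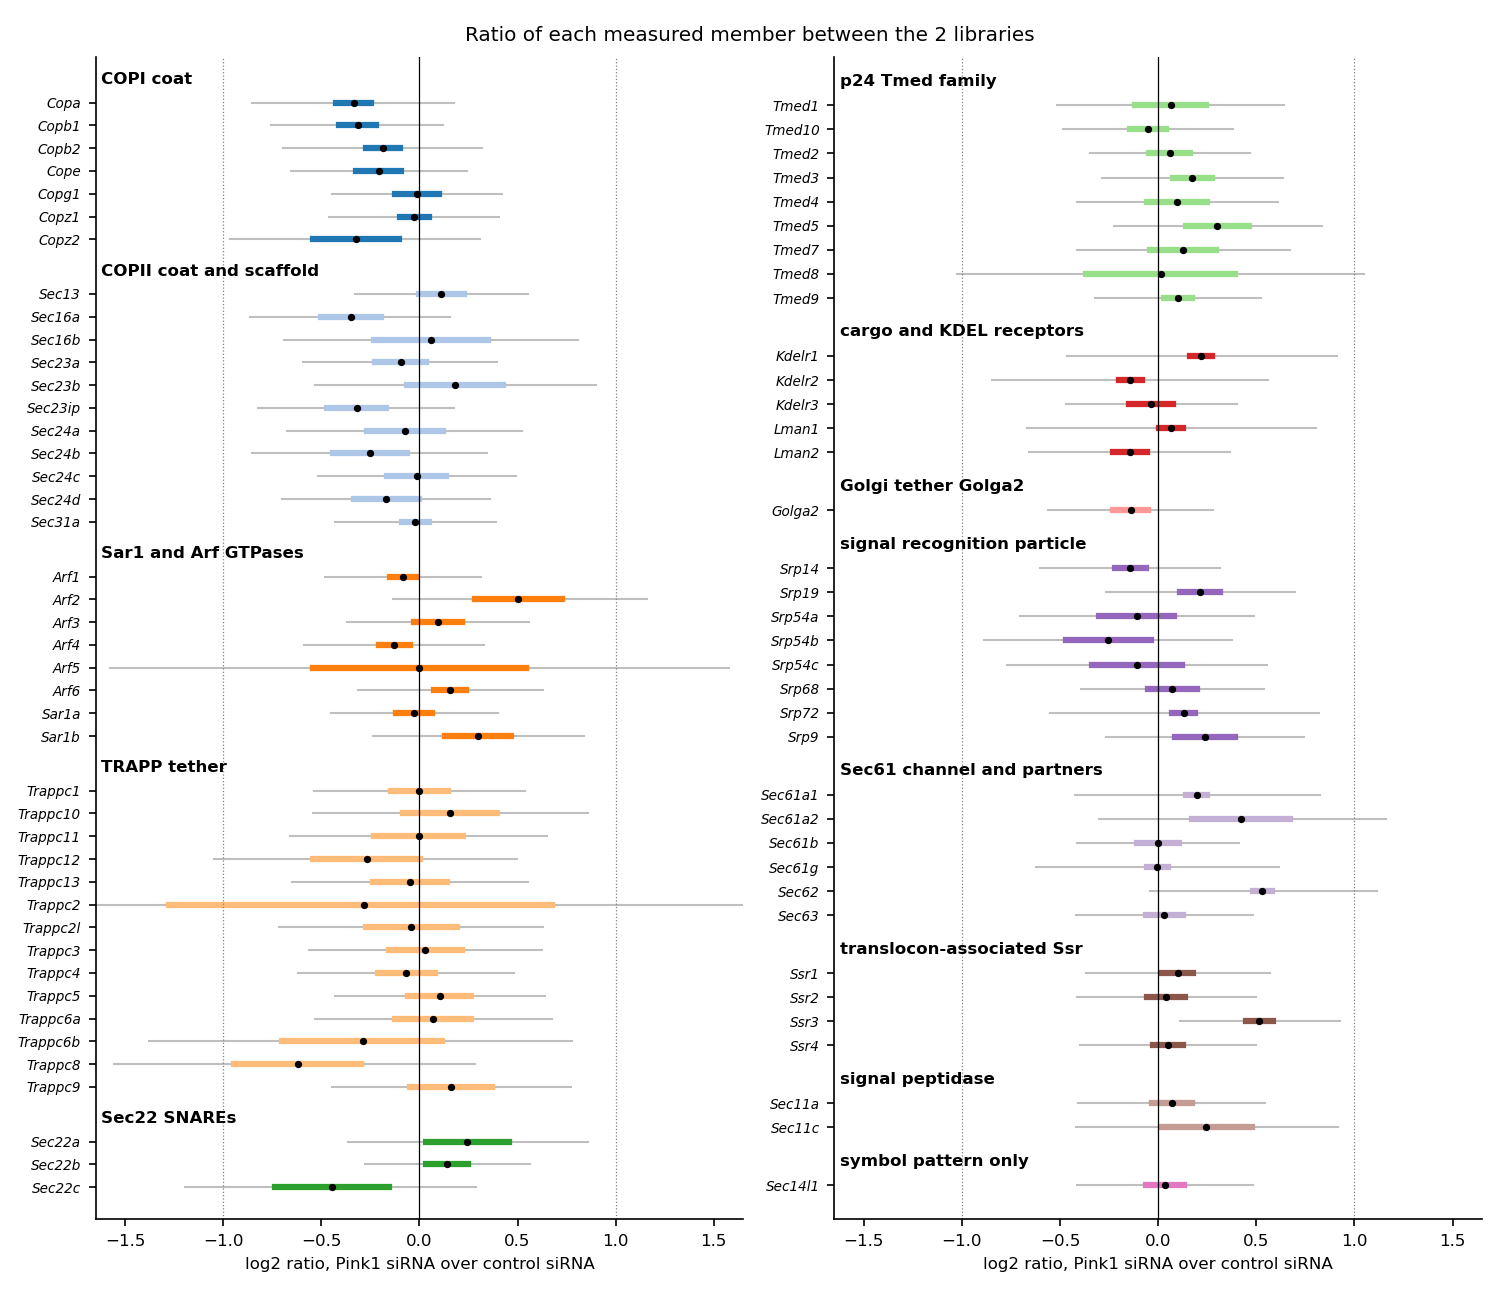
Points are log2 ratios of the measured members, Pink1 siRNA over control siRNA, grouped by role, with the 95% counting interval as a thick bar and the widened interval as a thin grey one (that of Trappc2 runs past both edges). Dotted lines mark 2-fold. Ssr3 is the member whose grey bar leaves out 0, and all 7 COPI points lie to the left of 0.

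COPI coat genes lay on the lower side. All 7 measured subunits had a ratio below 1, against 48.9% of measured genes and 41.3% of those averaging at least 100 CPM. The signs were the same under the 4 other scalings and the other pseudocount tried. None of these scalings raised ratios, so they could not have moved a COPI ratio above 1. The median log2 ratio was -0.21, with values from -0.34 to -0.01. Copa, the alpha subunit that binds dilysine signals on cargo, had 2436 and 1930 counts (ratio 0.792, counting interval 0.746 to 0.841). Copb1 had 2087 and 1678 counts (ratio 0.804, counting interval 0.754 to 0.858). Both widened intervals, 0.554 to 1.13 for Copa and 0.593 to 1.09 for Copb1, included 1. With 1 common widening factor of 6.30 both left it out, but that factor was taken from genes of low level only. The factors at the levels of Copa and Copb1 were 32.5 and 20.6. Copa overlaps Ncstn by 261 bases (144 and 170 counts), so some of its reads may not be separable.

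Of the other COPI subunits, all but Copz2 were closer to 1. Copb2 had 2374 and 2086 counts, and Cope, which steadies the alpha subunit, had 1327 and 1150. Copg1 had 1322 and 1312, and Copz1 had 3006 and 2952. The last 2 are partners in the inner, adaptor-like layer of the coat, and both ratios (0.993 and 0.982) lay within counting error of 1. The second zeta gene, Copz2, had 388 and 310 counts (ratio 0.799). The delta subunit gene Arcn1, outside the symbol patterns and named after its values were seen, had 667 and 617 counts (ratio 0.925).

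COPII genes were spread around 1, with 8 of 11 measured ratios below, against 48.9% of measured genes. The outer cage pair had 1219 and 1317 counts for Sec13 and 3336 and 3287 for Sec31a. The inner coat gene Sec23a, which activates the GTPase of Sar1, had 977 and 914 counts, and its paralog Sec23b had 262 and 297. The 4 cargo adaptors of the Sec24 family had ratios from 0.840 (Sec24b, 517 and 434 counts) to 0.990 (Sec24c, 725 and 718), so all 4 were below 1. Sec24a had 457 and 434 counts and Sec24d had 641 and 570.

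The lowest COPII ratios were in the genes that organise exit sites. Sec16a, the scaffold on which COPII coats assemble, had 801 and 629 counts (ratio 0.786, counting interval 0.706 to 0.873). Sec23ip, a lipase-like partner of Sec23, had 821 and 658 counts (ratio 0.802, counting interval 0.722 to 0.889). Their widened intervals included 1. The shorter scaffold gene Sec16b had 193 and 201 counts.

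Among the GTPases, Sar1b and Arf2 had the highest ratios. Sar1a had 1989 and 1953 counts (ratio 0.982) and Sar1b had 533 and 655 (ratio 1.23, counting interval 1.09 to 1.38, widened 0.847 to 1.79). Of the Arfs, Arf1, which recruits COPI, had 3633 and 3429 counts, and Arf3 had 1039 and 1109. Arf2 had 286 and 406 counts (ratio 1.42, counting interval 1.22 to 1.66), and its widened interval of 0.911 to 2.23 included 1. Arf4 had 2793 and 2556 counts, Arf5 had 60 in each library, and Arf6, which acts at the plasma membrane, had 2399 and 2672.

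Paralog shares set the 2 libraries side by side without a scaling factor. They are read here between libraries, not between paralogs. Sar1b held 21.1% of the Sar1 counts with the control siRNA and 25.1% with the Pink1 siRNA (exact intervals 19.6% to 22.8% and 23.5% to 26.8%). Kdelr1 held 42.1% and 47.9% of the KDEL receptor counts, and Kdelr2 held 45.6% and 40.4%. Sec22c held 12.4% and 8.49% of the Sec22 counts. Sec23b held 21.1% and 24.5% of the Sec23 counts, Sec16b 19.4% and 24.2% of the Sec16 counts, and Copz2 11.4% and 9.50% of the Copz counts. The exact intervals of the 2 libraries overlapped for Sec23b, Sec16b and Copz2, and did not for Sar1b, Kdelr1, Kdelr2 and Sec22c. The intervals of the shares hold counting error alone, and the widened interval of the ratio included 1 for each of these 7 genes. Of the families not listed here, every share of Sec24, Sec11 and Trappc6 had overlapping intervals, while those of Arf1, Arf2, Arf4 and Arf6 did not overlap. How often shares fail to overlap in gene families outside the members was not computed. With counting error alone, 34.1% of all measured genes passed 1.2-fold between these libraries.

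**Figure D3:**
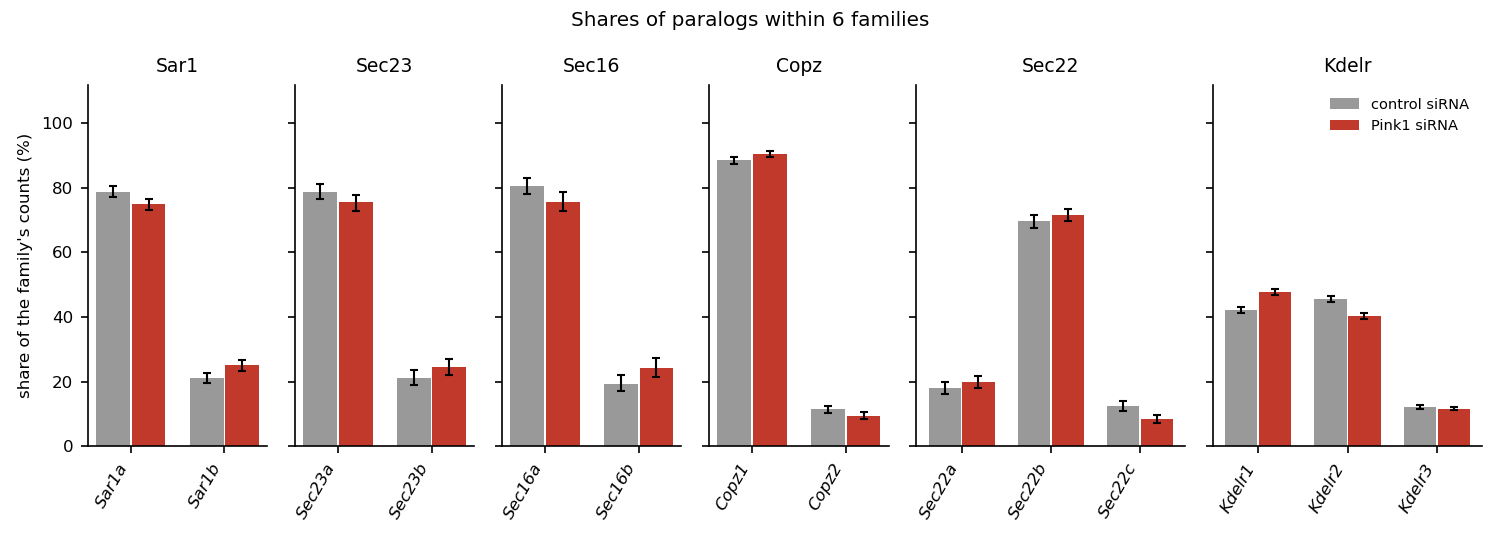
Bars give each paralog's share of its family's counts in the control siRNA library (grey) and the Pink1 siRNA library (red), with exact binomial 95% intervals from counting alone. The Kdelr1 share is 42.1% in the control and 47.9% with the Pink1 siRNA, and the Kdelr2 share 45.6% and 40.4%.

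The lowest ratio of any measured member was in the TRAPP tether, which activates the GTPase Rab1 and catches COPII vesicles. Trappc8 (chromosome 18, 20817211 to 20896425), a subunit of the autophagy-linked form TRAPPIII, had 206 and 134 counts, or 14.7 and 9.57 CPM. The ratio was 0.651 (counting interval 0.519 to 0.813, widened 0.340 to 1.22). The other TRAPPIII subunits had 329 and 328 counts for Trappc11 (ratio 0.997), 252 and 209 for Trappc12 and 476 and 461 for Trappc13. All 4 ratios were below 1, as were 48.9% of measured genes. The TRAPPII subunits had ratios above 1, with 357 and 399 counts for Trappc9 and 273 and 304 for Trappc10. Among these TRAPPII and TRAPPIII subunits, only Trappc8 had a counting interval that left out 1. Trappc9 overlaps the noncoding gene Peg13 (186 and 212 counts). This grouping of TRAPP subunits was made after their values were seen.

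The TRAPP core was close to 1. Trappc1 had 801 counts in both libraries, Trappc4 had 794 and 758, and Trappc5 had 623 and 669. Trappc3 had 474 and 484 counts, Trappc6a had 428 and 449, and Trappc2l had 317 and 308. Trappc6b (115 and 94 counts) and Trappc2 (22 and 18), both thinly counted, had ratios of 0.818 and 0.822 with counting intervals that included 1. Over the 14 measured TRAPP genes the median log2 ratio was -0.02, with 6 ratios above 1. Trappc2l overlaps Galns by 76 bases (135 and 105 counts).

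Of the 3 SNARE genes, 2 had ratios above 1 and 1 below. Sec22b, the SNARE of ER to Golgi vesicles, had 1331 and 1468 counts (ratio 1.10), and its relative Sec22a had 344 and 407 (ratio 1.18). Sec22c had 237 and 174 counts (ratio 0.735, counting interval 0.60 to 0.897, widened 0.436 to 1.22). Golga2, which encodes the matrix protein GM130 that receives vesicles at the cis-Golgi, had 2105 and 1910 counts (ratio 0.907).

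The p24 proteins, which help select cargo such as GPI-anchored proteins, leaned to the higher side by small amounts. Of 9 measured Tmed genes, 8 had a ratio above 1 (7 with total-count or upper-quartile scaling), against 51.1% of measured genes. The median log2 ratio was 0.10. Of the 9, 8 lay within 1.2-fold, and every widened interval included 1. Tmed5 had the highest ratio, with 589 and 726 counts (ratio 1.23, counting interval 1.10 to 1.38, widened 0.854 to 1.79). Tmed9, the member with the most counts, had 3043 and 3261, and Tmed3 had 1595 and 1800. The core pair Tmed2 (1468 and 1530 counts) and Tmed10 (1922 and 1853) had ratios of 1.04 and 0.964. The rest, Tmed1, Tmed4, Tmed7 and Tmed8, had ratios from 1.01 to 1.09. Tmed1 overlaps Dnm2 by 380 bases (2035 and 2467 counts).

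Cargo receptors were abundant and close to 1. Lman1, the mannose-binding receptor for secreted glycoproteins, had 4199 and 4396 counts, and the related lectin gene Lman2 had 2277 and 2058. The KDEL receptors return ER chaperones that escape to the Golgi. Kdelr1 had 4525 and 5267 counts (ratio 1.16), Kdelr2 had 4901 and 4444 (ratio 0.907), and Kdelr3 had 1317 and 1286 (ratio 0.976). Counting intervals of Kdelr1 (1.12 to 1.21) and Kdelr2 (0.871 to 0.945) lay on opposite sides of 1, and both widened intervals included it. Kdelr3 overlaps Ddx17 by 44 bases (5480 and 4931 counts).

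Members with the unfolded protein response element in their promoter window showed no large difference. Of the 7, 6 had a ratio below 1, with Sec16b the exception, against 48.9% of measured genes. The median log2 ratio of the 7 was -0.10, and they include the COPI genes Copb1 and Copb2 described above. The 26 members with ACGTGG had a median of -0.03, with 17 ratios below 1. The 39 measured members with a window and without ACGTGG had a median of 0.03, with 18 below 1. None of these values was tested. The BiP gene Hspa5, a target of the same stress pathway, had 21246 and 20417 counts (ratio 0.961), and Xbp1 had 915 and 856 (ratio 0.936).

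Other genes of the same pathway, from 6 lists outside the symbol patterns, were also mostly near 1. By the 2-fold rule 0 of their 141 measured genes were called. With 1.2-fold and a widened interval that left out 1, 2 were called higher and 4 lower, or 4.26% against 4.07% of measured genes. Those higher were Ost4, a small subunit of the oligosaccharyltransferase (592 and 945 counts, ratio 1.60), and Ergic3, a cycling receptor between ER and Golgi (1116 and 1559, ratio 1.40). Those lower were Cog1, a subunit of the COG tether (275 and 144, ratio 0.525), the golgin gene Golga3 (552 and 327, ratio 0.593), Nomo1, a translocon-associated gene (511 and 307, ratio 0.601), and the disulphide isomerase gene Pdia4 (1717 and 1105, ratio 0.644). Ost4 overlaps Agbl5 by 151 bases (618 and 942 counts), and Cog1 overlaps Fam104a by 8013 bases (2971 and 1989) and Slc39a11 by 1023 (464 and 386), so reads of Ost4 and Cog1 may not be separable from these genes.

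The genes named next complete the 4 largest log2 ratios in size of each list, so they were picked for lying far from 1. Among translocon partners (25 measured, median log2 ratio 0.04), Krtcap2 had 1864 and 2405 counts and Ncln 557 and 697. In other routes of ER insertion (18 measured, median 0.12), Caml had 212 and 335, Asna1 371 and 529, Emc4 792 and 1097, and Emc2 1477 and 1793. In COPII assembly (24 measured, median 0.07), Preb, the exchange factor that loads Sar1, had 906 and 1151, Bcap29 had 270 and 352, and Ergic1 had 1526 and 1871. These genes all had ratios above 1 with widened intervals that included 1, and Krtcap2, Emc4 and Preb each overlap another measured gene. Nomo1, named above with a ratio of 0.601, was also among the 4 largest of the translocon partners.

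The lists nearest to COPI and the Golgi had genes on both sides. In COPI and retrograde traffic (16 measured, median 0.06), Scfd2 had 155 and 244 counts, Nbas 160 and 106, Zw10 180 and 227, and Rint1 206 and 253. Nbas, Zw10 and Rint1 encode partners in 1 ER tether for COPI vesicles, and their ratios were 0.664, 1.26 and 1.23. Among Golgi tethers and SNAREs (31 measured, median 0.02), Cog7 had 213 and 324 counts and Stx6 272 and 186. In ER chaperones and the unfolded protein response (27 measured, median 0.05), Dnajb9 had 115 and 79, Atf4 7792 and 9174, and Eif2ak3 298 and 260. Widened intervals of all these genes included 1.

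**Figure D4:**
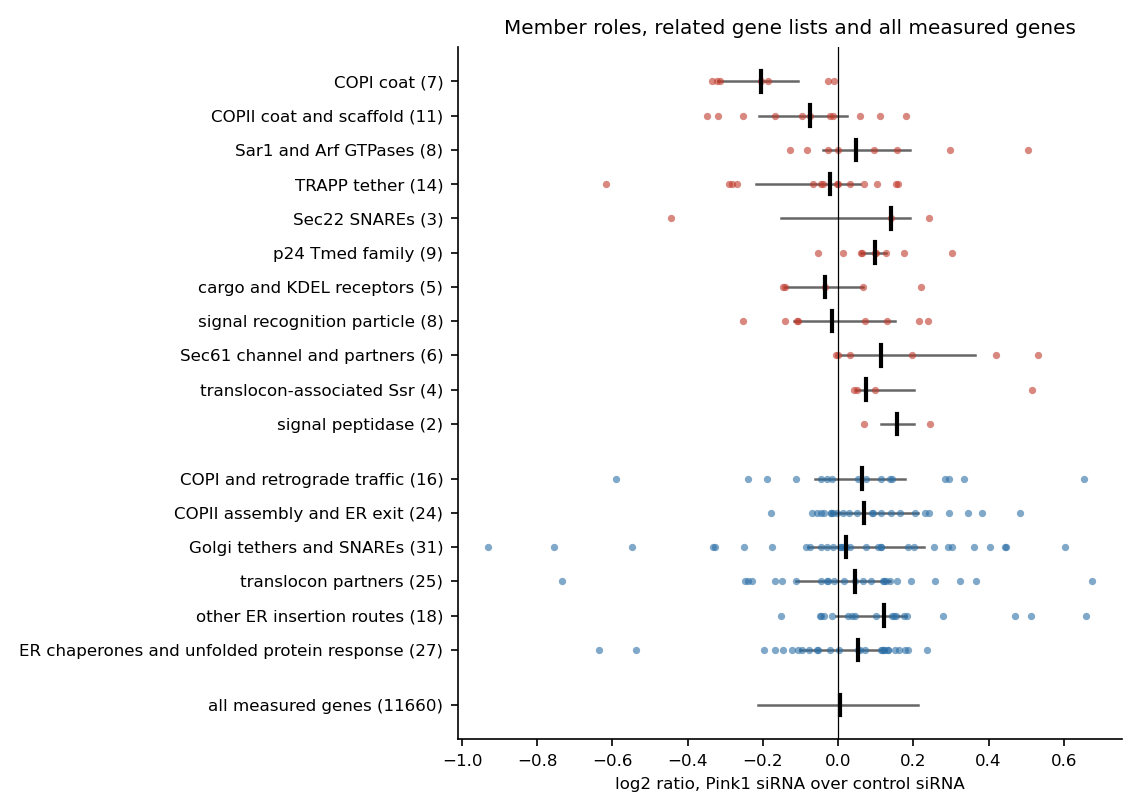
Points are log2 ratios of measured genes for 11 member roles (red) and 6 related lists (blue), with the number measured in brackets, the median as a black bar and the interquartile range as a grey line. The COPI coat has the lowest median of the roles (-0.21), and all measured genes have a median of 0.00 with quartiles at -0.21 and 0.21.

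Rows below 40 counts close the account. Of the 9, 5 had no count in either library (Tmed11, Trappc3l, Sec14l3, Sec14l4 and Sec14l5), a result that 3 counts (0.214 CPM) per library would still allow. Sec14l2 had 4 and 6 counts. Sec14l1, the measured gene of that family, had 1760 and 1803 (ratio 1.02).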

How the data were processed

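Trizol-extracted RNA was made into QuantSeq libraries, whose reads start from transcript 3′ ends, per the labels' protocols. The submitters' processing notes name bcl2fastq (2.20.0.422), Bowtie2, bedtools and build mm10. Not given in the sources used here are the annotation, strand use and placing of multiply mapped reads. The authors' deposited values are raw counts per gene symbol, read as such from whole numbers with unequal totals. No molecular identifiers are mentioned, so reads copied from 1 molecule cannot be separated, and it is not stated whether the cultures were separately grown.

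Counts were scaled by TMM (edgeR 4.0.16, R 4.3.3), and log2 ratios are of scaled counts with 0.5 added. Intervals are exact (Clopper-Pearson, SciPy 1.17.1). The widened interval divides both counts by the mean squared excess over binomial variance in the gene's twentieth of mean level, which ranged up to 128. Coordinates, overlaps and promoter windows are RefSeq GRCm38.p6, the assembly behind mm10. Of 147 listed related symbols, 3 were found by synonym. All measured members may be named, with the 4 largest log2 ratios of each related list, Hspa5, Xbp1 and Pink1. In all, 10 promoter motifs were searched. Alternatives were other scalings (total counts, upper quartile, DESeq2 1.42.0 size factors, Rn45s left out), a pseudocount of 5, no filter or 200 counts, other folds and intervals, and members left out. The members, lists and motifs were chosen with earlier results of these data known. Functions were tested on simulated data.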

Additional observations from a re-analysis of the deposited data

How the results depend on the processing

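Called members numbered 0, 0, 1 and 0 for 2-fold higher, 2-fold lower, 1.2-fold higher and 1.2-fold lower. With 1.5-fold in place of 2-fold, 1 member was lower (Trappc8), and with no filter on low counts 3 were 2-fold higher (Sec31b, Tmed6 and Sec1). With the plain counting interval, 6 members were 1.2-fold higher (Sar1b, Arf2, Sec61a2, Sec62, Ssr3 and Tmed5) and 7 lower (Copa, Copb1, Copz2, Sec16a, Sec23ip, Sec22c and Trappc8). With a common widening factor of 6.30, 2 were higher (Sec62 and Ssr3) and 2 lower (Copa and Copb1). That factor came from genes of low level only, and the factors at the levels of these genes ran from 20.6 to 128. These calls therefore allow for less spread than the widened interval does. The share of all measured genes called with the common factor was not computed. With 1.5-fold in place of 1.2-fold and the widened interval 0 were higher. The member median, 0.0001 on the log2 scale, was -0.042 with total-count scaling, -0.0125 with upper-quartile scaling, 0.0302 with no filter and 0.0121 both with a summed count of 200 and without overlapping members, and the summed counts gave 0.0543. Total-count scaling moved the median of all measured genes by -0.042, and 7 of 79 members changed sign under it, 3 under upper-quartile scaling and 0 under DESeq2 size factors, scaling without Rn45s or a pseudocount of 5. No paired analysis was possible because each group had 1 library. The widening factor reached 128 for the most abundant genes, which limits what can be called for Sec62, Sec61a1, Sec61g, Kdelr1, Kdelr2, Lman1 and Srp72.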

Other observations

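Of the members, 3 had no count with the control siRNA and a few with the Pink1 siRNA: the COPII cage paralog Sec31b had 0 and 8 counts, the p24 gene Tmed6 had 0 and 9, and the fucosyltransferase gene Sec1 had 0 and 7. Set against a floor of 3 counts in the control library, these counts are 2.67-fold, 3.00-fold and 2.33-fold higher. That figure leaves out counting error, and the lower ends of the counting intervals were 1.71, 1.97 and 1.44. Such rows were common in both directions, with 89 rows at 0 in the control and 7 to 9 counts with the Pink1 siRNA, and 125 rows the other way. With 1 library per group, how often repeat cultures would give such pairs was not tested.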
